A study of Mus musculus with 60 samples.

Results

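The spleen, an organ that filters blood, was compared with the inguinal lymph node, an organ that filters lymph. The comparison used the 4 libraries labelled spleen and the 4 labelled inguinal lymph node, 8 of the 60 libraries that the study made from 15 tissues, and they were chosen by tissue label alone. All came from female C57BL6/J mice 6 weeks old, untreated as far as the labels say, whose circulation had been flushed through the heart with phosphate-buffered saline and EDTA before the organs were taken into RNAlater. RNA of the whole organ was read from the 3′ ends of transcripts with oligo(dT) primers, so each value is a gene's share of the RNA of a mixed tissue. In such bulk samples, fewer cells of a type and less RNA per cell cannot be told apart. The labels do not say whether the replicates of a tissue came from separate mice, and the p-values then measure only the spread between these samples.

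The spleen holds red pulp, where macrophages take up aged red cells and return their iron, and white pulp, where B cell follicles and T cell zones are wrapped by a marginal zone that samples blood-borne antigen. A lymph node receives lymph through sinuses lined by lymphatic endothelium and admits lymphocytes from blood through high endothelial venules, whose sugar-coated addressins are bound by rolling lymphocytes. Dendritic cells that migrate from the tissue drained by the node arrive with the lymph, a route that the spleen does not have. Both organs are otherwise built from the same follicles, T cell zones and reticular stroma.

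The libraries held 3208256 to 5211133 counts in the node and 2435089 to 3071381 in the spleen. The rank correlation of CPM (read counts put on a common library size, scaled by the trimmed mean of M-values, TMM) over the 13130 genes tested had a median of 0.969 within the node, 0.980 within the spleen and 0.910 between them. Mitochondrial ribosomal RNA took 10.8% to 11.7% of the counts in spleen and 4.33% to 7.66% in the node, and its part in the results was not tested. The defining markers matched the labels: Coch was at most 3.93 CPM in every node library, and Glycam1 was at most 9.82 CPM in every spleen library. The marker Ccr7 was higher in the node by less than 2-fold and does not tell the organs apart by presence. Genes of neighbouring tissues differed among libraries of 1 organ, and where their reads came from was not tested. The 12 adipocyte genes summed to 563, 127, 6540.3 and 7855 CPM in node replicates 1 to 4 and to 112 to 211 in spleen, and 11 genes of skin and mammary epithelium to 55.4, 12.96, 248 and 248 in the node and 13.5 to 26.9 in spleen. The 10 pancreas genes summed to 1.64, 0, 282 and 10164 CPM in spleen replicates 1 to 4 and to at most 5.14 in the node. The 13 interferon-stimulated genes summed to 562, 1164, 407 and 485 CPM in the node and 446 to 544 in spleen, so node replicate 2 stood apart from the other 7 libraries. Results that rest on these libraries are given with and without them.

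**Figure D1:**
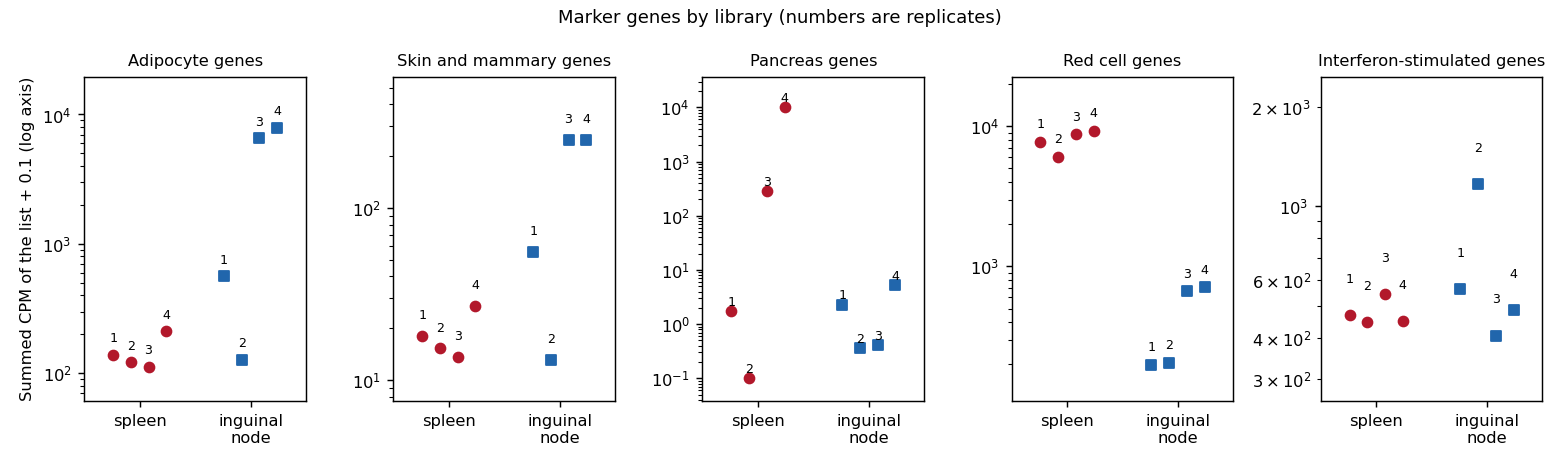
Summed CPM of 5 marker lists in each library (log axis, 0.1 added), circles for spleen and squares for inguinal lymph node, with the replicate number above each point. Node replicates 3 and 4 sit highest for adipocyte genes, spleen replicate 4 at 10164 CPM for pancreas genes, and node replicate 2 at 1164 CPM for interferon-stimulated genes.

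Of 13130 genes with enough counts to test, 863 were higher in spleen (6.57%) and 654 were higher in the inguinal lymph node (4.98%), 1517 in all (11.6%). A gene was called at a Benjamini-Hochberg adjusted p under 0.05 in edgeR's quasi-likelihood test and an absolute log2 fold change above 1. Fold changes are given as spleen minus node with their standard error, so a negative value is a gene higher in the node. Adjusted p alone, at any fold, passed for 5913 genes (45.0%), and the median log2 fold change of all tested genes was -0.02, with quartiles of -0.34 and 0.37. All 4 spleen libraries lay above all 4 node libraries for 2801 genes (21.3%) and below them for 2543 (19.4%), so a count of genes whose groups do not overlap is read against those shares. A count of called members of a list is likewise read against 6.57% for spleen and 4.98% for the node. Over 8-fold differences were called for 123 genes higher in spleen and 80 higher in the node. Only genes that passed a filter on low counts were tested. A gene almost without reads in 1 organ passed it only through the other, so its direction was set by the filter. Such members of a list are not separate support for its direction. That limit holds for every list below, also where it is not repeated.

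**Figure D2:**
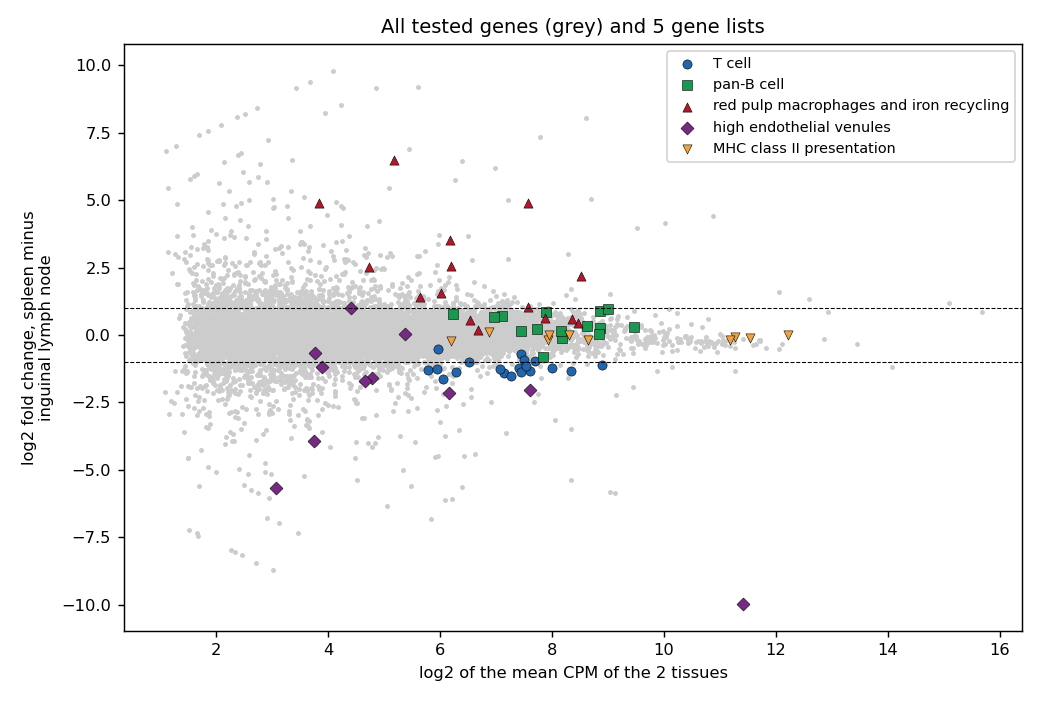
Log2 fold change, spleen minus inguinal lymph node, of every tested gene (grey, 1 point per gene) against the log2 of its mean CPM, with 5 gene lists in colour. T cell genes lie below 0, red pulp macrophage genes above it, pan-B cell genes near 0.30 in the median and MHC class II genes near -0.09, while high endothelial venule genes reach -9.98 at Glycam1.

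The genes with the largest differences in favour of spleen included transcription factors of its connective tissue. Of 8 listed genes of spleen stroma and organ formation, 7 could be tested and 6 were called higher in spleen, none lower, with a median log2 fold change of 8.43, or 8.04 with the genes that had no read in the node set at their lower bound. Tlx1, Nkx2-5, Nkx2-3, Wt1 and Tcf21 had node means of at most 0.079 CPM and passed the filter on low counts only through spleen. The count and median are therefore not separate support, and the list was chosen with earlier results of these data known. Nkx2-3 (chr19:43612325-43615892, mm10), a homeobox factor needed for normal spleen architecture, stood at 29.5, 22.8, 24.7 and 25.7 CPM in spleen replicates 1 to 4 and had no read in any node library. It was at least 134-fold higher in spleen against a floor of 3 reads over the 4 node libraries (adjusted p = 7.69e-11, edgeR). Tlx1 (chr19:45150680-45156943), the homeobox factor without which no spleen forms, stood at 36.4, 29.6, 29.1 and 27.7 CPM in spleen, with 1 read in the 4 node libraries together. Their pooled reads gave a ratio of 481 (95% exact counting interval 85.7 to 19053). Nkx2-5, a homeobox factor shared with the heart, was at 11.05 to 15.6 CPM in spleen and without a read in the node, at least 69.2-fold higher.

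Tcf21 and Wt1, factors of splenic and other mesoderm-derived stroma, followed the same separation. Tcf21 had 59.3, 69.3, 48.7 and 54.97 CPM in spleen and 1 read in the node in all, a ratio of 904 (95% exact counting interval 162 to 35755). Wt1 had 33.6, 40.999, 31.8 and 44.7 CPM in spleen and 1 read in the node, a ratio of 589 (95% exact counting interval 105 to 23334). Nr5a1, a nuclear receptor of steroid-making tissue that is also known from spleen endothelium, had 11.5, 22.8, 27.4 and 24.9 CPM in spleen and no read in the node, at least 115-fold higher (adjusted p = 2.78e-08, edgeR). All 4 spleen libraries held each of these genes, with spleen replicate 1 lowest for Nr5a1. Star, which carries cholesterol into mitochondria for steroid synthesis and was named after its values were seen, was 118 ± 17.5 CPM in spleen and 8.94 ± 0.830 CPM in the node (mean ± SD, n = 4 each), a log2 fold change of 3.71 ± 0.13 (adjusted p = 2.28e-14, edgeR). Mesothelium, the epithelium that covers the spleen, also makes Wt1. Of 6 mesothelium genes, Wt1 included, 4 could be tested and 3 were higher in spleen, with the list summing to 56.5 to 89.0 CPM in spleen and 1.06 to 29.1 in the node. The 3 were almost without reads in the node and passed the filter on low counts only through spleen. Msln, a surface protein of mesothelium, had 4.40 to 9.89 CPM in spleen and no read in the node, at least 37.1-fold higher, and Upk3b had 8.45 to 20.6 CPM in spleen and 1 read in the node. Krt7, a keratin of mesothelium and of glands, had 3.68, 3.80, 3.72 and 5.93 CPM in spleen and 5.50, 0.529, 23.95 and 28.4 in the node and was not called (-1.71 ± 1.05, adjusted p = 0.238), but was called higher in the node without node replicate 2 (-2.11, adjusted p = 0.0326). The part of the capsule in the Wt1 result was not tested.

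Coch (chr12:51593341-51605771), which encodes the secreted protein cochlin known from the inner ear and from follicular dendritic cells, was the most abundant of the leading spleen genes. It stood at 788, 820.4, 719.6 and 792 CPM in spleen and 2.93, 3.17, 1.58 and 3.93 CPM in the node. The ranges lay far apart and the replicates were close to one another, with a log2 fold change of 8.04 ± 0.14 (adjusted p = 3.15e-20, edgeR). Hs6st2, a sulfotransferase that modifies heparan sulfate, stood at 87.2, 94.7, 76.2 and 87.4 CPM in spleen and 1.28, 1.06, 0 and 0 in the node (log2 fold change 6.88 ± 0.30, adjusted p = 4.01e-10, edgeR). The pancreatic elastase gene Cela1 also met the rule for leading genes, with 11.05, 10.6, 61.9 and 1684 CPM in spleen and 2.93, 1.59, 2.84 and 3.33 in the node. Spleen replicate 4 alone held most of its reads, as it did for the 10 pancreas genes, which could not be tested. The log2 fold change of Cela1 was 7.35 ± 2.39 (adjusted p = 0.0472, edgeR) and 3.40 without spleen replicate 4 (adjusted p = 0.0270). It was not called without spleen replicate 3 or any 1 node library (adjusted p from 0.0583 to 0.109). Ctrb1, a digestive protease of the pancreas, was at 0, 0, 66.7 and 2378 CPM in spleen and 0, 0, 0 and 0.908 in the node.

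**Figure D3:**
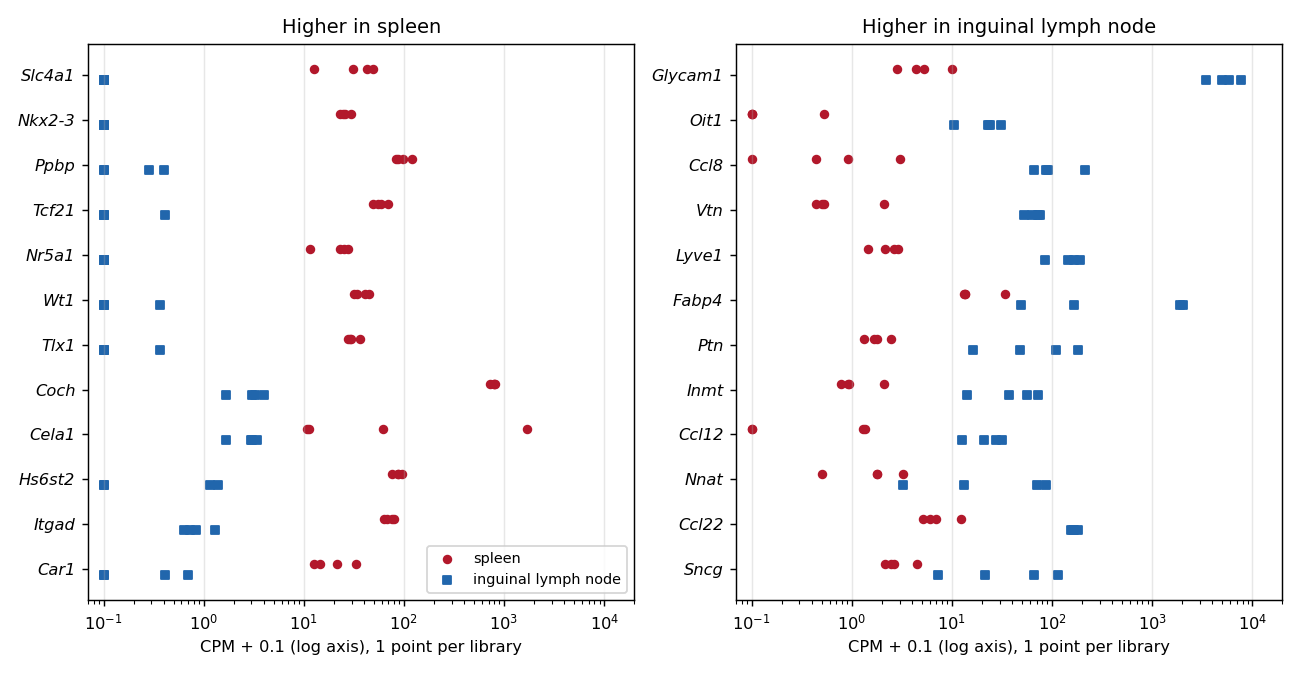
CPM of the 12 leading genes in each direction (log axis, 0.1 added), 1 point per library, red circles for spleen and blue squares for inguinal lymph node. The 2 colours do not mix in any row because the rule for leading genes required no overlap. Cela1 in spleen and Fabp4, Ptn, Nnat and Sncg in the node spread over more than 10-fold within a tissue.

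Red pulp macrophages take in damaged red cells, break heme down with heme oxygenase and export the iron through ferroportin. Of 15 genes of this cell type, all tested, 10 were higher in spleen and none lower, and 14 had all 4 spleen libraries above the node. The median log2 fold change was 1.57, and the list summed to 3052 to 3197 CPM in spleen and 1018 to 1642 in the node. Cd163 and Itgad had node means of 0.97 and 0.78 CPM and passed the filter on low counts only through spleen. They are not separate support for the direction of the list. Slc40a1, ferroportin, stood at 361, 369, 371 and 377 CPM in spleen and 16.1, 9.52, 15.8 and 6.66 CPM in the node. Every spleen library lay above every node library, a log2 fold change of 4.91 ± 0.22 (adjusted p = 2.82e-07, edgeR). Hmox1, heme oxygenase 1, stood at 153, 101, 160.1 and 121 CPM in spleen and 13.6, 10.0, 14.2 and 8.78 in the node, a log2 fold change of 3.51 ± 0.18 (adjusted p = 1.14e-08). Cd163, the receptor for hemoglobin bound to haptoglobin, stood at 22.5, 31.3, 27.8 and 29.3 CPM in spleen and 0.550, 0.529, 1.58 and 1.21 in the node, 4.89 ± 0.29 on the log2 scale (adjusted p = 5.43e-11).

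Itgad, an integrin subunit of red pulp macrophages, separated the tissues most among them, at 63.4, 79.5, 67.7 and 75.9 CPM in spleen and 0.733, 0.529, 0.630 and 1.21 in the node (log2 fold change 6.48 ± 0.21, adjusted p = 2.99e-15, edgeR). Spic, the transcription factor that these macrophages need, was 125 ± 16.9 CPM in spleen and 21.1 ± 1.89 in the node (SD, n = 4 each), a log2 fold change of 2.56 ± 0.11. Vcam1, an adhesion molecule that these macrophages and stroma share, was 603 ± 68.5 and 133 ± 37.7 CPM, at 2.17 ± 0.20, and Adgre1, which encodes F4/80, was 45.7 ± 5.28 and 7.62 ± 2.17 CPM, at 2.54 ± 0.18. Mertk, a receptor for dying cells, was at 1.57 ± 0.11, and its relative Axl at 1.05 ± 0.17, just past the fold threshold. Without node replicate 4, Axl fell to 0.92, under that threshold. The complement chains that many tissue macrophages make were closer: C1qa was 407 ± 17.6 CPM in spleen and 297 ± 57.7 in the node, a log2 fold change of 0.46 ± 0.11.

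Of 18 genes of iron and heme handling, 17 were tested, 4 were higher in spleen and none lower, and the median was 0.43. The 4 were Slc40a1, Cd163, Hmox1 and Slc11a1, which moves iron out of the phagosome (72.9 ± 5.89 against 27.4 ± 4.45 CPM). The light chain of ferritin, Ftl1, was 592 ± 66.5 CPM in spleen and 455 ± 36.1 in the node, a log2 fold change of 0.38 ± 0.08, and the heavy chain Fth1 was at -0.076 ± 0.07. The transferrin receptor Tfrc was at 0.85 ± 0.15, below the fold threshold, with all 4 spleen libraries above the node. Fcna, a ficolin that binds microbial sugars and was named after its values were seen, stood at 284, 271, 292 and 303 CPM in spleen and 13.02, 7.67, 7.88 and 5.75 in the node, a log2 fold change of 5.002 ± 0.17 (adjusted p = 1.37e-10, edgeR).

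Macrophage genes that textbooks place in the marginal zone did not all favour spleen. Of 10 genes of marginal zone and sinus macrophages, 8 were tested, 1 was higher in spleen and 3 were higher in the node, with a median of -0.28. Over all tested genes the shares were 6.57% and 4.98%. Cd209b, the lectin SIGN-R1 of marginal zone macrophages and of node sinus macrophages, stood at 11.9, 25.8, 26.4 and 22.5 CPM in spleen and 387, 251, 264 and 168 in the node. No library of one tissue reached the range of the other, and the log2 fold change was -3.62 ± 0.36 (adjusted p = 0.000293, edgeR). Its relative Cd209d, named after its values were seen, was 6.62 ± 3.06 CPM in spleen and 51.3 ± 19.7 in the node, at -2.97 ± 0.43. Timd4, a receptor for phosphatidylserine on dying cells, was 79.9 ± 8.26 and 191 ± 49.5 CPM (log2 fold change -1.26 ± 0.19, adjusted p = 0.000922), and the scavenger receptor Msr1 was at -1.74 ± 0.31.

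Cd5l, a secreted scavenger protein of macrophages, was the member higher in spleen, at 91.3, 83.3, 85.6 and 83.4 CPM against 12.5, 10.3, 9.46 and 12.1 CPM in the node (log2 fold change 2.94 ± 0.12, adjusted p = 2.13e-13, edgeR). Marco, another scavenger receptor of marginal zone and sinus macrophages, stood at 183, 185, 234 and 241 CPM in spleen and 243, 205, 174 and 128 in the node. Its groups overlapped, and the log2 fold change was 0.16 ± 0.21 (adjusted p = 0.555). Siglec1, the sialic acid receptor CD169 of metallophilic and subcapsular sinus macrophages, was 18.2 ± 5.23 CPM in spleen and 29.7 ± 8.92 in the node, at -0.72 ± 0.25 (adjusted p = 0.0310), within the fold threshold. Over 16 Fc and scavenger receptors, 7 were higher in spleen and 2 in the node. Fcgr4, an activating receptor for IgG on macrophages and patrolling monocytes, stood at 36.8, 37.2, 36.2 and 26.5 CPM in spleen and 1.65, 1.06, 0 and 1.21 in the node (log2 fold change 4.95 ± 0.30, adjusted p = 2.17e-10), and the mannose receptor Mrc1 at 149, 159, 135 and 181 CPM in spleen and 56.8, 40.99, 41.9 and 15.1 in the node (1.98 ± 0.35, adjusted p = 0.00442).

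Red cell genes were among the strongest differences. Of 20 genes of red cells and their precursors, 19 were in the table and 13 could be tested, 10 were higher in spleen and none lower, with a median log2 fold change of 3.36. Without node replicates 3 and 4 the count was 16 of 18 tested. More members passed the filter there than the 13 of the main fit, so the larger count is not added support. Some members, such as Slc4a1 and Car1, were almost without reads in the node and passed the filter on low counts only through spleen. Alas2 and Ermap, with node means of 1.24 and 2.335 CPM, also passed it only through spleen. None of these 4 is separate support for the direction of the list. The list summed to 7757, 6079.8, 8804 and 9264 CPM in spleen replicates 1 to 4 and to 197, 204, 663 and 709.6 in the node, where replicates 3 and 4 held more than replicates 1 and 2. Slc4a1 (chr11:102348824-102366203), the anion exchanger of the red cell membrane, stood at 30.7, 12.7, 49.4 and 43.1 CPM in spleen and had no read in the node, at least 183-fold higher (adjusted p = 0.00735, edgeR). Alas2, the first enzyme of heme synthesis in red cell precursors, stood at 10.2, 15.6, 12.2 and 11.1 CPM in spleen and 0.733, 0.529, 1.58 and 2.12 in the node, a log2 fold change of 3.36 ± 0.36 (adjusted p = 2.43e-07).

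The beta globin gene Hbb-bs stood at 3543, 2831, 3963 and 4109 CPM in spleen and 61.4, 82.0, 281 and 266 in the node (log2 fold change 4.40 ± 0.62, adjusted p = 0.00158, edgeR). Hbb-bt, Hba-a1 and Hba-a2 gave 5.03, 4.15 and 3.98. The 2 beta and the 2 alpha globin genes are close copies of each other, so how the counting divided reads between copies is uncertain. Car1, a carbonic anhydrase of red cells, was 20.3 ± 9.18 CPM in spleen against 3 reads in the node, a ratio of 109 (95% exact counting interval 36.9 to 535). Ermap, a blood group protein of the red cell surface, was at 1.95 ± 0.36, with 5.32, 5.07, 12.5 and 13.4 CPM in spleen, and was no longer called without spleen replicates 3 and 4 (log2 fold change 1.14, adjusted p = 0.0656). Epor, the erythropoietin receptor, was at -0.038 ± 0.28 (adjusted p = 0.924). Gata1, the transcription factor of red cells and megakaryocytes, was 5.65 ± 1.81 CPM in spleen and 2.90 ± 0.744 in the node, a log2 fold change of 0.96 ± 0.34 (adjusted p = 0.0245) that passed the fold threshold without node replicate 4, spleen replicate 1 or spleen replicate 4 (1.11, 1.11 and 1.00). Of 13 cell division genes, 2 were called higher in spleen, beside 6.57% of all genes, and none in the node, 3 had negative fold changes and 10 had overlapping groups. The 2 were Mki67 at 139 ± 15.6 against 49.2 ± 5.96 CPM (log2 fold change 1.496 ± 0.10) and Bub1 at 1.19 ± 0.35, which overlapped and was not called without spleen replicate 3 (adjusted p = 0.0525) or without node replicates 3 and 4 (0.0563). Their part in the red cell result was not tested. Of 10 genes of blood progenitors, 6 were tested. Mpo, the peroxidase of granulocyte precursors (1.84 ± 0.54), and Meis1, a stem cell factor (1.41 ± 0.23), were higher in spleen and Cd34 in the node. The groups of Mpo overlapped, with means of 4.67 CPM in spleen and 1.39 in the node. With spleen replicates 3 and 4 left out, 1 was higher in spleen, and Mpo was not called (1.33, adjusted p = 0.228, edgeR).

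Platelet and megakaryocyte genes showed the same direction. Of 14, 11 were tested, 8 were higher in spleen and none lower, with a median of 3.11 and sums of 333 to 401 CPM in spleen and 72.9 to 106 in the node. Ppbp, Gp9, Gp5, Treml1 and Gp6 had means of at most 0.23 CPM in the node and passed the filter on low counts only through spleen. Ppbp, a platelet chemokine, stood at 82.7, 98.5, 119 and 87.8 CPM in spleen with 2 reads in all 4 node libraries, a ratio of 771 (95% exact counting interval 213 to 6374). Pf4, platelet factor 4, stood at 92.1, 109, 91.1 and 91.4 CPM in spleen and 13.6, 7.40, 12.6 and 9.99 in the node, a log2 fold change of 3.11 ± 0.15 (adjusted p = 1.61e-12, edgeR). Gp9 and Gp5, subunits of the receptor for von Willebrand factor, were 10.4 ± 2.38 and 11.8 ± 1.88 CPM in spleen and had 1 and 3 reads in the node, with ratios of 165 (95% exact counting interval 28.97 to 6572) and 62.1 (95% exact counting interval 20.7 to 305). Gp1ba, another subunit, was 6.03 ± 0.251 CPM in spleen and 1.46 ± 1.04 in the node (1.97 ± 0.40). Vwf, which endothelium also makes, was at 0.028 ± 0.22 (adjusted p = 0.926). On a scale set over all 60 libraries, blood mononuclear cells held 2328 ± 467 CPM of Pf4 and 1006 ± 567 of Hbb-bs, and bone marrow 349.9 ± 67.03 and 90947 ± 7461, where spleen held 72.4 ± 6.25 and 2730.2 ± 439. The part of blood left in the vessels in the red cell and platelet results was not tested.

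Genes of red cells and platelets are known targets of GATA factors, so their promoter windows are shown. Windows of 300 bases, from 250 before to 50 after the start of the gene in RefSeq (GRCm38.p6, the build mm10), were searched on both strands for AGATAA or TGATAA, which read TTATCT or TTATCA from the other strand and can overlap each other by at most 1 base. These letters occurred in 6115 of 32851 windows (18.6%) and, by gene, in 1197 of 9582 tested genes with a window (12.5%). Among red cell genes called higher in spleen, 7 of 10 had a window and 5 held a match (Alas2, Ermap, Hba-a1, Hba-a2 and Hbb-bs). Hba-a1 and Hba-a2 are close copies, so their matches are not separate cases. Among platelet genes called higher, 8 of 8 had a window and 5 held a match (Clec1b, Gp1ba, Gp5, Gp6 and Pf4). A match is a description of the letters and not a bound site. The window of Alas2 (chrX:150547167-150547466, plus strand) holds 1 match that begins at position -86 from the gene's start, and that of Ermap (chr4:119189946-119190245, minus strand) 1 at -67. The windows of Gp5 (chr16:30310732-30311031, minus strand) and Gp1ba (chr11:70638872-70639171, plus strand) hold 2 each, at -93 and -77 and at -104 and -51. Each window is written 5′ to 3′ on the strand of its gene, with the matches in capitals.
Alas2: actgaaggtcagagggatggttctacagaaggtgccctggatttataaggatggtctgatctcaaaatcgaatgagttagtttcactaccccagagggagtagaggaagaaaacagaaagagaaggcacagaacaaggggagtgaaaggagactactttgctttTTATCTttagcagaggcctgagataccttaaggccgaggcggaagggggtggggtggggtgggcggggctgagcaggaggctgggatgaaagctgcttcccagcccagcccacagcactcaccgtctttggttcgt
Ermap: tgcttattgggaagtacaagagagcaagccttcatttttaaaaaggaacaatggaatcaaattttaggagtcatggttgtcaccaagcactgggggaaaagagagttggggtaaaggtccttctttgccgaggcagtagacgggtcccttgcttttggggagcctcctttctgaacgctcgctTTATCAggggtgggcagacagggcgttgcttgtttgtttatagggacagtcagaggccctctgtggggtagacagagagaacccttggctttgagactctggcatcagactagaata
Gp5: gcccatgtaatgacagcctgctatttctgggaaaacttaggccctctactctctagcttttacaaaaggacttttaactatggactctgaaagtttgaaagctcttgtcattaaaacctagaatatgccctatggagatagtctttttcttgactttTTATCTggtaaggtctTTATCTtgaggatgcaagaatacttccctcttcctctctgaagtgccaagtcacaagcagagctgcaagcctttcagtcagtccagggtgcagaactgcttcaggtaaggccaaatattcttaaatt
Gp1ba: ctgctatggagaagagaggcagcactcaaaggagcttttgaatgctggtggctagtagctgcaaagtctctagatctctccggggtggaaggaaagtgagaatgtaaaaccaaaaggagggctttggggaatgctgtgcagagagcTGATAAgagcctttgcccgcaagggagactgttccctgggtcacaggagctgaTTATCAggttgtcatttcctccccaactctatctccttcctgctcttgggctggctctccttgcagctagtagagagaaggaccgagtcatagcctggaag

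Of 14 neutrophil genes, 11 were tested, 5 were higher in spleen and none lower, with a median of 0.61; without spleen replicates 3 and 4 the count was 3. Retnlg, a resistin-like protein of mature neutrophils, stood at 46.2, 30.9, 28.1 and 24.1 CPM in spleen and 1.47, 2.64, 3.47 and 4.84 in the node (log2 fold change 3.45 ± 0.29, adjusted p = 9.65e-08, edgeR). Il1b, the cytokine interleukin 1 beta, stood at 50.3, 67.6, 44.7 and 20.6 CPM in spleen and 4.58, 6.88, 2.84 and 5.14 in the node (3.21 ± 0.41, adjusted p = 0.000346). S100a8 and S100a9, the calprotectin subunits, were at 2.02 ± 0.40 and 1.97 ± 0.57. Node replicate 3 was highest in the node for both, at 35.3 and 68.7 CPM, and S100a9 (adjusted p = 0.0318) was not called when any library other than node replicate 3 was left out (adjusted p from 0.0559 to 0.0774). The granule genes of neutrophil precursors, Camp and Ltf, were not called (adjusted p = 0.585 and 0.257). Of 14 monocyte genes, 3 were higher in spleen and none in the node, namely Fcgr4, Treml4 (54.02, 57.5, 70.1 and 63.3 CPM in spleen, 7.52, 8.20, 6.93 and 7.26 in the node, 3.03 ± 0.14) and Cd14 (1.49 ± 0.35). Treml4 and Fcgr4 mark the patrolling class of monocytes, and Ly6c2, which marks the classical class, was 77.5 ± 11.8 CPM in spleen and 146 ± 47.6 in the node (-0.92 ± 0.25, adjusted p = 0.0247), within the fold threshold. Ly6c2 passed it when node replicate 3, node replicate 4 or spleen replicate 2 was left out (-1.06, -1.01 and -1.002). Over all 14 monocyte genes the median was -0.03, with 7 positive and 7 negative fold changes. The list summed to more in every node library than in any spleen library. Most of that sum was Lyz2, with means of 1548 CPM in spleen and 2422 in the node (-0.65 ± 0.12, uncalled). The order of the sums therefore does not stand for the list as a whole. Other members went both ways and were uncalled: Nr4a1 at 0.60, Cx3cr1 at 0.18, Ccr2 at -0.30, Ace at -0.56 and Spn at -0.73. Whether the balance of the 2 classes differed between the organs was not tested.

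Genes shared by all B cells differed by less than 2-fold. None of 15 pan-B cell genes was called in either direction by edgeR, while 11 had an adjusted p under 0.05 (and the same number an unadjusted p under 0.05) at a smaller fold, of which 10 were higher in spleen and 1 in the node. DESeq2 and limma-voom called none either. The median log2 fold change was 0.30, and the list summed to 5139 to 5510.2 CPM in spleen and 3829 to 4737 in the node. Ms4a1, which encodes CD20, stood at 726, 664, 544 and 774 CPM in spleen and 377, 397, 335 and 294 in the node, a log2 fold change of 0.95 ± 0.11 (adjusted p = 1.35e-05), and passed the fold threshold without node replicate 2 (1.01) or spleen replicate 3 (1.04). Fcer2a, which encodes CD23 of follicular B cells, ran the other way at 209, 169, 145 and 146 CPM in spleen and 287, 332, 279 and 274 in the node (-0.81 ± 0.11, adjusted p = 1.35e-05, edgeR).

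Marginal zone B cells line the splenic sinus and answer blood-borne antigen quickly. Of 10 genes of this subset, all tested, 6 were higher in spleen and none lower, with a median of 1.31 and sums of 1433 to 1608 against 596 to 709 CPM. Cr2, the complement receptor CD21 that this subset carries at high level and follicular B and dendritic cells carry too, stood at 761, 716, 855 and 802 CPM in spleen and 303, 284, 269 and 229 in the node. The lowest spleen library lay above the highest node library by more than the spread within either tissue, and the log2 fold change was 1.53 ± 0.09 (adjusted p = 3.34e-11, edgeR). Fcrl5, an Fc receptor-like protein of marginal zone B cells, stood at 29.5, 29.2, 30.5 and 32.03 CPM in spleen and 5.13, 4.76, 5.36 and 2.12 in the node (2.77 ± 0.21, adjusted p = 2.48e-09). Dtx1, a target and modulator of Notch, stood at 204, 209, 207 and 212 CPM in spleen and 75.5, 91.8, 91.1 and 80.2 in the node (1.30 ± 0.08, adjusted p = 1.82e-10). Asb2 was at 2.35 ± 0.12 and Myof at 1.42 ± 0.16. Notch2, the receptor whose signal makes these cells, was 103 ± 9.45 CPM in spleen and 85.6 ± 8.55 in the node, a log2 fold change of 0.26 ± 0.09 (adjusted p = 0.0299). Cd1d1, which marks these cells at high level, was at 0.63 ± 0.21 (adjusted p = 0.0232), S1pr3 at 0.22 ± 0.12 and Cd9 at 0.11 ± 0.09, with overlapping groups for each.

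Of 12 genes of immunoglobulin constant regions, with the joining chain among them, 6 were higher in spleen and none lower, with a median of 1.47. With replicates 3 and 4 of both tissues left out the count was 2. Ighm, the IgM heavy chain, stood at 6892, 7309.7, 6328 and 5158 CPM in spleen and 1907, 2637, 1826 and 2103 in the node, a log2 fold change of 1.60 ± 0.15 (adjusted p = 6.41e-05, edgeR). Ighd, the IgD heavy chain of naive follicular B cells, stood at 977, 925, 924 and 972 CPM in spleen and 1154, 1259, 1086 and 865 in the node and overlapped (-0.20 ± 0.09, adjusted p = 0.0771). Igkc, the kappa light chain, stood at 9593, 10509, 8075 and 7073 CPM in spleen and 2982, 4857, 2561 and 3587 in the node (1.33 ± 0.24, adjusted p = 0.00458). Iglc1 was at 1.70 ± 0.11, Iglc2 at 0.77 ± 0.08 and Iglc3 at 0.26 ± 0.09; these are close copies, so the division of reads between them is uncertain. Jchain, which joins IgM and IgA into polymers, stood at 596, 747, 539 and 355 CPM in spleen and 48.8, 124, 28.7 and 74.1 in the node (3.02 ± 0.49, adjusted p = 0.00322).

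The switched classes varied widely among libraries of a tissue. Igha stood at 332, 325, 104 and 288 CPM in spleen and 35.02, 82.0, 19.2 and 10.6 in the node, a log2 fold change of 2.81 ± 0.69 (adjusted p = 0.0172, edgeR), and Ighg3 at 210.4, 281, 87.3 and 87.8 CPM in spleen and 16.7, 46.3, 15.8 and 18.8 in the node (2.77 ± 0.60, adjusted p = 0.0103). Without node replicates 3 and 4 they were at 2.16 and 2.42 (adjusted p = 0.0836 and 0.0979). Ighg2c spanned 55.5 to 635 CPM in spleen and 3.48 to 381 in the node, and Ighg2b 77.9 to 320.4 and 7.70 to 194. Node replicates 1 and 3 were at most 8.19 CPM for both genes and node replicates 2 and 4 at least 155, the groups overlapped, and neither gene was called (adjusted p = 0.705 and 0.528). Of 10 plasma cell genes, 9 were tested and 4 were higher in spleen, none lower: Eaf2 (2.25 ± 0.33), Derl3 (1.57 ± 0.24), Mzb1 (1.23 ± 0.19) and Prdm1 (1.16 ± 0.24). Mzb1, a chaperone of immunoglobulin assembly that marginal zone B cells also make, was 220.2 ± 18.4 CPM in spleen and 93.5 ± 26.3 in the node. Of 8 germinal centre genes, 6 were tested, none was called higher in spleen and 1 in the node, beside 4.98% of all genes. It was S1pr2, which keeps B cells in the germinal centre (4.86 ± 2.31 CPM in spleen, 13.9 ± 2.69 in the node, -1.52 ± 0.29). Bcl6, the transcription factor of germinal centre B cells, was 83.9 ± 8.95 CPM in spleen and 62.8 ± 5.64 in the node, with all spleen libraries above the node and a log2 fold change of 0.42 ± 0.10 under the threshold (adjusted p = 0.00215). Rgs13, a regulator of G protein signalling, did not pass the filter, with 22 reads in the 4 spleen libraries and 9 in the 4 node libraries, and was called higher in spleen without it (adjusted p = 0.0356).

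T cell genes were higher in the inguinal node as a group. Of 19, all tested, 15 were higher in the node and none in spleen, and all 4 node libraries lay above all 4 spleen libraries for each of the 19. The median log2 fold change was -1.26, and the list summed to 1789 to 2127 CPM in spleen and 3897 to 4910.0 in the node. Cd3e, a signalling chain of the T cell receptor complex, stood at 119, 114, 84.3 and 93.3 CPM in spleen and 232, 230.3, 217 and 271 in the node, a log2 fold change of -1.21 ± 0.10 (adjusted p = 4.47e-08, edgeR). Trac, the receptor's alpha constant region, was 182 ± 26.4 against 466 ± 51.3 CPM (-1.35 ± 0.10). Both coreceptors were higher in the node, Cd4 at 85.5, 82.0, 71.8 and 70.0 CPM in spleen and 216, 211, 207 and 196 in the node (-1.42 ± 0.08, adjusted p = 7.09e-11) and Cd8b1 at 94.5, 80.7, 77.2 and 65.6 CPM in spleen and 227, 229.5, 198 and 262 in the node (-1.53 ± 0.11, adjusted p = 2.15e-09). Cd6, a costimulatory receptor, had the largest difference of the list, -1.64 ± 0.17. The other 4 members, Cd2, Cd28, Bcl11b and Trbc1, lay between -0.51 and -0.96 with adjusted p under 0.05.

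Of 11 genes of naive and homing T cells, 2 were higher in the node, beside 4.98% of all genes, and none in spleen, with a median of -0.21. Dapl1, a marker of quiescent T cells, stood at 39.7, 37.2, 26.1 and 34.4 CPM in spleen and 93.5, 106, 87.9 and 114 in the node (-1.55 ± 0.12, adjusted p = 5.14e-09, edgeR), and Tcf7, a transcription factor of naive and memory T cells, at -1.12 ± 0.12, which came under the fold threshold without node replicates 3 and 4 (-0.98) and without spleen replicates 3 and 4 (-0.97). Ccr7, the chemokine receptor that guides T cells and dendritic cells into T cell zones, stood at 126, 129, 134 and 99.3 CPM in spleen and 219, 226, 202 and 265 in the node. Every node library lay above every spleen library, and the log2 fold change of -0.90 ± 0.10 (adjusted p = 7.35e-07) stayed under the 2-fold threshold. Klf2, a transcription factor of quiescent T cells, was at -0.04 ± 0.08. S1pr1, the receptor that leads lymphocytes out along sphingosine phosphate, was higher in spleen at 208 ± 12.6 against 153 ± 16.9 CPM (0.44 ± 0.09, adjusted p = 0.000319), within the fold threshold.

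Regulatory and activated T cell genes were also higher in the node, 5 of 9 tested, with none higher in spleen and a median of -1.23. Foxp3, the transcription factor of regulatory T cells, stood at 5.32, 5.92, 5.75 and 7.91 CPM in spleen and 15.0, 20.4, 10.1 and 22.7 in the node, a log2 fold change of -1.45 ± 0.26 (adjusted p = 0.000133, edgeR). Il2ra, the high-affinity interleukin 2 receptor chain, was at -1.84 ± 0.17, and the costimulatory receptors Tnfrsf4 (OX40) and Tnfrsf9 (4-1BB) at -1.87 ± 0.16 and -1.36 ± 0.20. Ctla4 was 8.04 ± 3.53 CPM in spleen and 14.1 ± 1.82 in the node, within the fold threshold (-0.82 ± 0.25) except without spleen replicate 2 (-1.14). Whether the regulatory share differed beyond the T cell share was not tested.

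Genes of NK and cytotoxic cells went both ways: of 13 tested, 3 were higher in spleen and 2 in the node. Over all tested genes the shares were 6.57% and 4.98%. Gzma, a granzyme, stood at 65.1, 51.6, 61.3 and 63.3 CPM in spleen and 17.6, 20.6, 12.3 and 22.1 in the node (1.73 ± 0.15, adjusted p = 1.40e-08, edgeR), Klre1, an NK receptor, was at 1.53 ± 0.24, and Ncr1, the NK receptor NKp46, was at 1.251 ± 0.29. Ccl5, a chemokine of memory CD8 T cells and NK cells, ran the other way, at 231, 199.9, 179 and 194 CPM in spleen and 1069, 802, 759 and 1103 in the node (-2.22 ± 0.14, adjusted p = 1.96e-07). Xcl1, which draws XCR1-bearing dendritic cells, was 7.08 ± 0.827 CPM in spleen and 16.8 ± 1.68 in the node (-1.249 ± 0.20). Prf1, perforin, was at -0.014 ± 0.17 (adjusted p = 0.953), and Gzmb and Klrd1 at -0.28 ± 0.66 and -0.20 ± 0.11, all uncalled. T cells also make both chemokines.

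**Figure D4:**
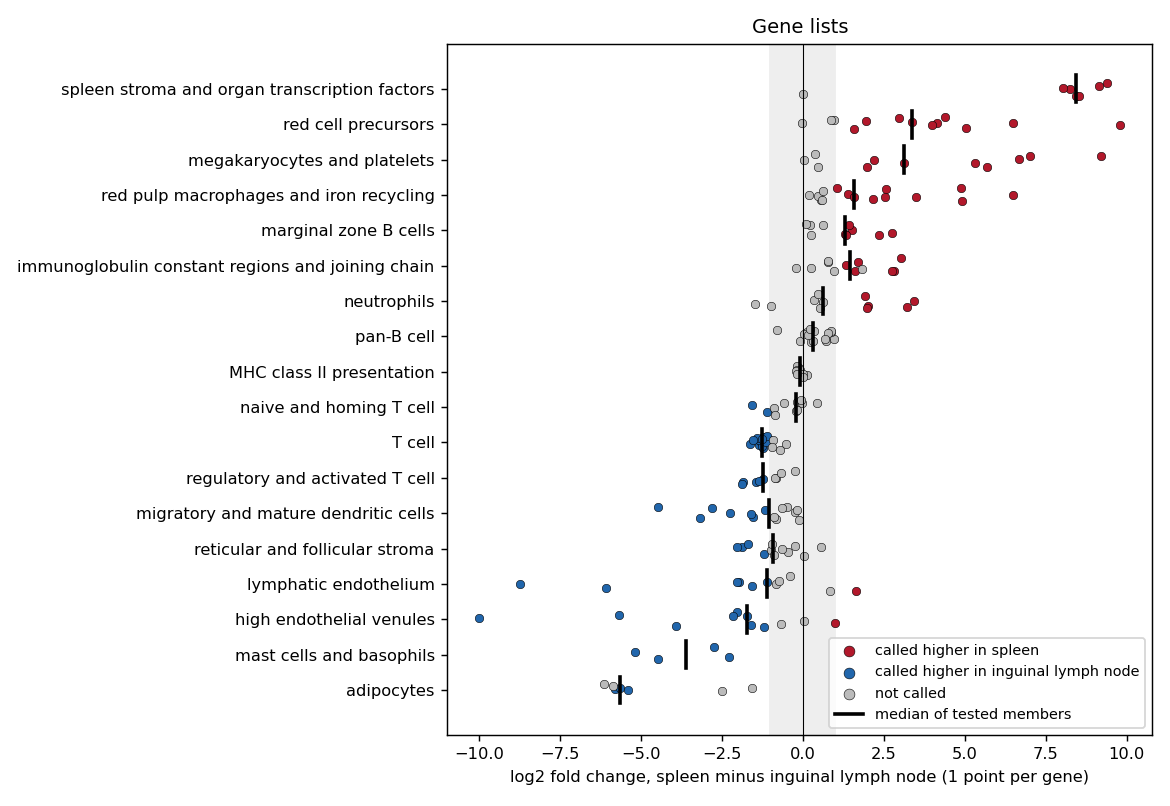
Log2 fold change, spleen minus inguinal lymph node, of each tested member of 18 gene lists (1 point per gene, jittered), coloured where called, with the median of each list as a bar and the range within 2-fold shaded. Medians run from 8.43 for spleen stroma and organ transcription factors to -5.64 for adipocytes, with T cell genes at -1.26 and MHC class II genes at -0.09. Of 7 adipocyte genes tested, 3 were called, and 0 without node replicates 3 and 4, which held the highest adipocyte sums.

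Of 15 genes of migratory and mature dendritic cells, 14 were tested, 7 were higher in the node and none in spleen, all 14 had negative fold changes, and the median was -1.03. Ccl22, a chemokine of mature dendritic cells, stood at 12.3, 6.76, 5.08 and 5.93 CPM in spleen and 160.1, 164, 156 and 182 in the node. No node library was below 156 CPM and no spleen library above 12.3, with a log2 fold change of -4.47 ± 0.17 (adjusted p = 5.26e-12, edgeR). Fscn1, which bundles actin in mature dendritic cells, stood at 53.6, 54.5, 56.2 and 48.2 CPM in spleen and 543, 392, 414 and 567 in the node (-3.17 ± 0.12, adjusted p = 2.09e-11). Cacnb3, a calcium channel subunit found in mature dendritic cells, stood at 15.6, 16.9, 17.6 and 12.3 CPM in spleen and 136, 88.3, 85.7 and 121 in the node (-2.79 ± 0.18, adjusted p = 2.22e-08), and Ccl17, another chemokine of these cells, was at -2.23 ± 0.36. Cd207, langerin of Langerhans cells and other dendritic cells, was called at -1.16 ± 0.45 (adjusted p = 0.0440) with overlapping groups, and was not called without node replicate 1 or 3 or without spleen replicate 1, 2 or 3. Epcam, which Langerhans cells share with epithelium, had 14.9, 6.08, 33.7 and 18.8 CPM in the node, highest in node replicates 3 and 4, which also held the highest sums of the skin and mammary epithelium genes. Its log2 fold change moved from -1.53 to -0.80 without those 2 libraries. Epcam was not called by limma-voom (adjusted p = 0.0714), nor without node replicate 1 or 4 or any 1 spleen library (adjusted p from 0.0616 to 0.101).

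Of 10 genes of type 1 conventional dendritic cells, 1 was higher in each organ, and 2 in spleen without node replicate 1. Over all tested genes, 6.57% were higher in spleen and 4.98% in the node, so counts this small do not set the class apart. Cadm1, an adhesion molecule, was higher in spleen (102, 109.9, 103 and 96.1 CPM against 41.1, 33.6, 25.8 and 27.2 in the node, 1.67 ± 0.12) and Itgae, which encodes CD103, was higher in the node (9.004, 15.2, 10.5 and 13.4 CPM against 52.3, 33.1, 27.1 and 36.01 in the node, -1.64 ± 0.21, adjusted p = 9.90e-06, edgeR). Xcr1, the receptor that defines the class, was 28.6 ± 2.97 CPM in spleen and 33.2 ± 12.2 in the node (-0.24 ± 0.21, adjusted p = 0.380). Of 9 tested type 2 genes, 2 were higher in spleen and 2 in the node. The lectins Clec10a and Mgl2, known from dermal dendritic cells, were higher in the node, Clec10a at 3.68, 5.07, 6.09 and 3.16 CPM in spleen and 39.2, 24.3, 28.4 and 18.2 in the node (-2.60 ± 0.27) and Mgl2 at -2.10 ± 0.32. Clec4a2, an inhibitory lectin of myeloid cells, was higher in spleen at 1.90 ± 0.22, with Dtx1, which marginal zone B cells share. Plasmacytoid dendritic cell genes had a median of -0.28. Siglech, their surface lectin, was 37.8 ± 5.50 CPM in spleen and 73.9 ± 11.3 in the node, a log2 fold change of -0.97 ± 0.13 (adjusted p = 3.64e-06) that lay at the fold threshold and passed it without node replicate 2, node replicate 4 or spleen replicate 3. Pacsin1, known from these cells, was higher in the node at -1.19 ± 0.12, 1 of 2 called of 10, and the count was 1 without node replicate 3 or spleen replicate 1, 2 or 4.

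Genes of MHC class II presentation lay close together in both organs. None of 10 genes was called by edgeR, DESeq2 or limma-voom, none had an adjusted p under 0.05 and 3 had an unadjusted p under 0.05 in edgeR, all 10 had overlapping groups, and fold changes ran from -0.22 to 0.12 with a median of -0.094. Cd74, the invariant chain, stood at 4611, 4698, 4700.2 and 5044 CPM in spleen and 5077, 5258, 4548 and 4353 in the node (-0.014 ± 0.07, adjusted p = 0.882). H2-Aa, H2-Ab1 and H2-Eb1, the chains of the classical class II molecules, gave -0.11 ± 0.10, -0.075 ± 0.08 and -0.17 ± 0.08.

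Of 12 genes of high endothelial venules, 11 were tested, 8 were higher in the node and 1 in spleen, with a median of -1.73. Glycam1 (chr15:103562759-103565081), a sulfated mucin of these venules, stood at 9.82, 4.23, 2.71 and 5.14 CPM in spleen and 7634, 5896, 4943 and 3419 in the node. It was the most abundant gene of the list, with a log2 fold change of -9.98 ± 0.48 (adjusted p = 9.17e-06, edgeR). Chst4, a sulfotransferase that modifies such mucins, had 20.7, 20.9, 14.8 and 9.99 CPM in the node and 3 reads in the 4 spleen libraries, a ratio of 59.4 (95% exact counting interval 20.1 to 289.8). Fut7, a fucosyltransferase that acts on their sugars, stood at 3.27, 2.54, 0.338 and 0.791 CPM in spleen and 39.6, 26.4, 23.95 and 10.6 in the node (-3.92 ± 0.63, adjusted p = 0.00155). For each of the 3, node replicate 4 was the lowest node library. Chst4 and Fut7, with spleen means of 0.28 and 1.735 CPM, passed the filter on low counts only through the node. They are not separate support for the direction of the list.

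Enpp2, the enzyme autotaxin that makes lysophosphatidic acid at the venule wall, stood at 71.2, 71.0, 83.9 and 80.3 CPM in spleen and 454, 296, 318 and 195 in the node (-2.04 ± 0.27, adjusted p = 0.000951, edgeR), and Ubd was at -2.16 ± 0.18. Cd34, whose sialomucin form also carries the ligand, was 13.7 ± 3.99 CPM in spleen and 41.3 ± 11.5 in the node (-1.60 ± 0.23). Madcam1, the mucosal addressin and a marker of the lining of the splenic marginal sinus, went against the list at 24.96, 27.9, 26.1 and 35.2 CPM in spleen and 17.6, 19.04, 11.03 and 7.87 in the node. Its log2 fold change of 1.01 ± 0.23 (adjusted p = 0.00184) fell under the threshold without node replicate 3 (0.90), node replicate 4 (0.82) or spleen replicate 4 (0.89). Gcnt1, which branches the sugar chains of such mucins and acts in many leukocytes, was at 0.037 ± 0.13 (adjusted p = 0.836).

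Lymphatic endothelium genes were higher in the node for 6 of 11 tested and higher in spleen for 1, with a median of -1.10. Tbx1, Lyve1 and Ackr4, with spleen means of at most 3.05 CPM, passed the filter on low counts only through the node. They are not separate support for the direction of the list. Lyve1 (chr7:110850607-110863239), the hyaluronan receptor of lymphatic endothelium and some macrophages, stood at 2.05, 2.54, 1.35 and 2.77 CPM in spleen and 189.6, 165, 144 and 85.0 in the node (-6.07 ± 0.40, adjusted p = 1.51e-05, edgeR). Tbx1, a transcription factor of lymphatic vessels, had no read in spleen and 18.7, 16.1, 21.1 and 8.78 CPM in the node, at least 56.6-fold higher in the node. Pdpn was 3.82 ± 0.947 CPM in spleen and 15.0 ± 3.29 in the node (-1.98 ± 0.26), and Ackr4, the scavenger of CCL19 and CCL21 on the sinus ceiling, was at -2.04 ± 0.34. Stab2, a scavenger receptor shared by node sinuses and the sinusoids of red pulp, went against the list at 192, 168, 183 and 208 CPM in spleen and 79.4, 59.8, 61.8 and 36.6 in the node (1.65 ± 0.21, adjusted p = 0.000406). Prox1, the factor that sets lymphatic identity, was 17.01 ± 1.49 CPM in spleen and 21.9 ± 7.87 in the node and overlapped (-0.38 ± 0.23, adjusted p = 0.177). Flt4, the receptor VEGFR-3, was at -0.81 ± 0.22 (adjusted p = 0.00666) and passed the fold threshold without spleen replicate 4 (-1.06).

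Among blood vessel genes, the node was higher in Emcn, endomucin of veins and capillaries (2.29 ± 0.975 against 15.0 ± 3.79 CPM, -2.73 ± 0.32), and in Egfl7 (-1.24 ± 0.23), and the spleen in Mrc1, which its sinusoids and macrophages share. These 2 higher in the node and 1 in spleen, of 11 tested, stand beside 4.98% and 6.57% of all genes. The other 8 were not called, and without spleen replicates 3 and 4 the count higher in the node was 1. Vtn, vitronectin, a matrix and plasma protein, stood at 0.409, 0.423, 0.338 and 1.98 CPM in spleen and 71.5, 63.2, 75.3 and 52.4 in the node (-6.33 ± 0.28, adjusted p = 1.61e-12, edgeR). Of 10 tested guidance receptors, 1 was called, beside 11.6% of all genes. It was Ackr3, a scavenger receptor of CXCL12, at 38.5, 43.5, 36.2 and 36.8 CPM in spleen and 4.22, 1.32, 4.10 and 2.12 in the node (3.66 ± 0.23, adjusted p = 1.82e-10). Its chemokine Cxcl12 was 422 ± 60.01 CPM in spleen and 287 ± 96.5 in the node and overlapped (0.55 ± 0.27, adjusted p = 0.152).

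Of 14 genes of reticular and follicular stroma, 12 were tested, 4 were higher in the node and none in spleen, with a median of -0.91. Ccl19, the T zone chemokine read by CCR7, stood at 4.91, 2.54, 1.02 and 3.95 CPM in spleen and 8.25, 14.02, 9.14 and 13.6 in the node (-1.87 ± 0.35, adjusted p = 0.000201, edgeR). Its partner Ccl21a, which has near-identical copies, had no read in any of the 8 libraries. Tnfsf11, the cytokine RANKL of marginal reticular cells, was 2.85 ± 0.554 CPM in spleen and 9.09 ± 1.61 in the node (-1.68 ± 0.30). Ccl19 and Tnfsf11, with spleen means of 3.10 and 2.85 CPM, passed the filter on low counts only through the node. Neither is separate support for the direction of the list. Clu, clusterin, which follicular dendritic cells make, stood at 735, 694, 640.4 and 683 CPM in spleen and 1993, 1558, 1563 and 1153 in the node (-1.19 ± 0.14, adjusted p = 0.000149). Cxcl13, the B cell follicle chemokine, stood at 273, 306, 289.7 and 289 CPM in spleen and 384, 286, 269 and 187 in the node, and the groups overlapped (0.036 ± 0.20, adjusted p = 0.899). Without node replicates 3 and 4, the count of stroma genes higher in the node was 7, with Il7, Grem1 and Bst1 added at -1.35, -1.15 and -1.14.

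Several leading node genes encode chemokines and small secreted proteins. Ccl8 stood at 0.819, 2.96, 0.338 and 0 CPM in spleen and 212, 90.2, 87.3 and 65.4 in the node (-6.83 ± 0.84, adjusted p = 0.000841, edgeR), and Ccl12 at 0, 1.27, 0 and 1.19 CPM in spleen and 31.7, 27.5, 12.6 and 20.9 in the node (-5.24 ± 0.56, adjusted p = 1.60e-05); both attract monocytes. Oit1 had 30.99, 23.01, 23.6 and 10.3 CPM in the node and 1 read in spleen, a ratio of 239 (95% exact counting interval 42.6 to 9469). Inmt, a methyltransferase, stood at 0.819, 0.845, 0.677 and 1.98 CPM in spleen and 72.6, 37.02, 56.1 and 13.9 in the node (-5.36 ± 0.83, adjusted p = 0.00225). Node replicate 4 was lowest for Ccl8, Oit1 and Inmt.

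Of 8 mast cell and basophil genes, the 4 that could be tested, all of mast cells, were higher in the node, with non-overlapping groups, a median of -3.61 and sums of 4.06 to 7.91 CPM in spleen and 28.7 to 61.1 in the node. With means of 0.39 to 1.59 CPM in spleen, the 4 passed the filter on low counts only through the node. Their shared direction was therefore set by that filter and is not separate support. Mcpt4, the chymase of connective tissue mast cells, stood at 0, 0.845, 0.338 and 0.395 CPM in spleen and 13.6, 18.5, 21.1 and 8.17 in the node (-5.16 ± 0.49, adjusted p = 8.90e-08, edgeR). The tryptase Tpsb2 was at -4.46 ± 0.41, Cma1 at -2.75 ± 0.39 and the carboxypeptidase Cpa3 at -2.26 ± 0.38. Prss34, a protease of basophils, did not pass the filter on low counts, with 9 reads in the 4 spleen libraries and 0 in the 4 node libraries, and was called higher in spleen without that filter (adjusted p = 0.00838). Node replicate 2, the lowest of the 4 node libraries in adipocyte genes, held 18.5 CPM of Mcpt4, and the part of surrounding tissue in this result was not tested.

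Genes of fat and of gland epithelium were high in some node libraries only. Of 12 adipocyte genes, 7 were tested and 3 were higher in the node. Fabp4, a fatty acid carrier of adipocytes and capillaries, stood at 13.5, 13.1, 13.5 and 34.01 CPM in spleen and 164, 48.4, 2036 and 1908 in the node (-5.81 ± 1.48, adjusted p = 0.0200, edgeR). Without node replicates 3 and 4 its log2 fold change was -2.54 (adjusted p = 0.0503), and it was not called without spleen replicate 1, 2 or 3. Adipoq, the adipocyte hormone adiponectin, stood at 22.6, 0.529, 257 and 260.3 CPM in the node and 0.819, 1.27, 0.338 and 5.14 in spleen and was at the threshold (adjusted p = 0.05). The hormone gene Retn and the carbonic anhydrase Car3 were called at -5.64 ± 1.84 and -5.39 ± 1.70, and at -2.10 and -1.81 without node replicates 3 and 4, uncalled. The count of adipocyte genes called in the node ran from 0 to 11 as single libraries were left out, with 0 without spleen replicate 1, 2 or 3, 1 without node replicate 3 or 4 or spleen replicate 4, 6 without node replicate 1 and 11 without node replicate 2.

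3 further leading node genes moved with the fat sum. Ptn, a heparin-binding growth factor, stood at 47.7, 16.1, 180.0 and 108 CPM in the node and 1.23 to 2.37 in spleen (-5.60 ± 1.16, adjusted p = 0.00898, edgeR). Nnat stood at 13.2, 3.17, 86.0 and 70.5 CPM in the node and 0.409 to 3.16 in spleen, and Sncg, a synuclein, at 21.3, 7.14, 114 and 65.7 and 2.05 to 4.35. All 3 were highest in node replicates 3 and 4 and lowest in replicate 2, as the adipocyte genes were. Nnat was not called without any 1 of the spleen replicates (adjusted p from 0.0855 to 0.102), and Sncg was not called without node replicate 4 or any 1 spleen replicate (0.0581 to 0.0761). With node replicates 3 and 4 left out, Ptn was at -4.20 (adjusted p = 0.000328) and Sncg at -2.37 (adjusted p = 0.000109), and Nnat did not pass the filter on low counts. The keratins Krt19 and Krt8 of gland epithelium were not called (adjusted p = 0.0754 and 0.0831), with 17.1, 0.529, 94.6 and 109 and 7.88, 0.264, 32.5 and 35.7 CPM in the node, and both were called without node replicate 2. The part of neighbouring fat in these results was not tested.

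Several interferon-stimulated genes were highest in node replicate 2. Of 13, 1 was called higher in the node, beside 4.98% of all genes. It was Usp18, which damps interferon signalling, at 22.5, 21.6, 19.6 and 17.8 CPM in spleen and 45.3, 80.4, 31.2 and 31.2 in the node (-1.22 ± 0.35, adjusted p = 0.0261, edgeR). It was not called without node replicate 1 or 2 or any 1 spleen library, and its log2 fold change was -0.84 without node replicate 2. Mx1, an antiviral GTPase, stood at 13.9, 14.4, 15.6 and 10.3 CPM in spleen and 26.95, 65.1, 20.2 and 21.2 in the node, again with no overlap, and was not called by edgeR (-1.30 ± 0.47, adjusted p = 0.0597). It was called by DESeq2 (adjusted p = 0.0128), limma-voom (0.0312), with library totals (0.0496), the replicate block (0.00291) or all 60 libraries (0.000137), and without node replicate 3 (0.0423). Ifit1 stood at 10.1, 96.5, 11.7 and 14.5 CPM in the node against 11.9 to 16.8 in spleen, and Ifit3 at 11.2, 99.7, 9.46 and 12.1 against 18.2 to 29.8. Without node replicate 2, Ifit3 and the antiviral gene Rsad2 were higher in spleen (1.03, adjusted p = 0.000414, and 1.59, adjusted p = 9.18e-06), whereas with all libraries they gave -0.55 ± 0.92 and 0.45 ± 0.72, uncalled.

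The heat shock chaperones Hspa1a, Hspa1b and Hsph1 were higher in spleen and varied among its libraries. Of 14 immediate early and heat shock genes, 5 were called higher in spleen and none in the node, 5 had negative fold changes, and the list summed to 536, 816, 718 and 607 CPM in spleen replicates 1 to 4 and 475 to 556 in the node. With replicates 3 and 4 of both tissues left out, 3 were higher in spleen. Hspa1b stood at 15.1, 65.1, 45.0 and 28.1 CPM in spleen and 5.87, 3.17, 6.93 and 9.08 in the node (2.63 ± 0.53, adjusted p = 0.00692, edgeR), with its close copy Hspa1a at 2.72 ± 0.47, and Hsph1 at 97.8, 214, 211 and 165 CPM in spleen and 44.7, 45.7, 43.5 and 61.4 in the node (1.82 ± 0.28). Dusp1, an immediate early phosphatase, was 51.04 ± 10.6 CPM in spleen and 16.1 ± 4.51 in the node (1.67 ± 0.19). The immediate early genes Ier2 (-0.78 ± 0.10, adjusted p = 1.64e-06) and Egr1 (-0.53 ± 0.13, adjusted p = 0.00328) had all node libraries above all spleen libraries, and Junb was at -0.47 ± 0.13 (adjusted p = 0.00684), each under the 2-fold threshold. Without spleen replicate 2, Egr2 was called higher in the node (-1.05, adjusted p = 0.0102). Mitochondrial ribosomal RNA took a larger share of every spleen library than of any node library. The link between that share and these genes was not tested.

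Complement genes were divided. Of 16, 11 were tested, with 1 higher in spleen and 3 in the node, beside 6.57% and 4.98% of all genes. C6, a component of the membrane attack complex, stood at 48.3, 40.2, 44.3 and 54.97 CPM in spleen and 6.60, 5.29, 5.99 and 4.24 in the node (3.05 ± 0.17, adjusted p = 3.34e-11, edgeR). C3, the central component, was higher in the node at 551, 519, 515 and 568 CPM in spleen and 1662, 1316, 1444 and 1005 in the node (-1.33 ± 0.13, adjusted p = 1.09e-05), with C4b at -1.12 ± 0.12 and C1ra at -1.08 ± 0.15; the last was under the fold threshold without node replicate 1 (-0.98). Dcn, decorin of fibroblasts, was 77.0 ± 18.3 CPM in spleen and 354 ± 76.7 in the node (-2.21 ± 0.23, adjusted p = 0.000236), and Postn was at -2.08 ± 0.34. They were the 2 called of 10 tested matrix genes, beside 11.6% of all genes called, a count of 4 without node replicate 2. Of the smooth muscle genes, Actg2 (1.66 ± 0.32) and Tagln (1.04 ± 0.23) were higher in spleen, 2 of 8, the latter not called without node replicate 1 or 4 or spleen replicate 2 or 4; without node replicates 3 and 4 the count was 4.

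Other tissues of the study place the 2 organs. On 1 scale set over all 60 libraries (TMM, so values differ from those above), Coch was 589 ± 30.7 CPM in spleen, 2.32 ± 0.788 in the inguinal node, 5.44 ± 2.03 in the mesenteric node, 0.388 ± 0.296 in blood mononuclear cells and 0.212 ± 0.423 in bone marrow (mean ± SD, n = 4 each). Glycam1 was 4366 ± 1440.0 CPM in the inguinal node and 1286 ± 257 in the mesenteric node, and its next highest mean, in thymus, was 31.5 ± 33.9. Tlx1 had its highest mean in spleen, at 23.2 ± 2.96, while the mesenteric node had 13.7 ± 2.55 CPM of Nkx2-3, which the inguinal node lacked. Lyve1 was 1.64 ± 0.469 CPM in spleen, 116 ± 36.2 in the inguinal node and 429 ± 50.1 in the mesenteric node. Madcam1 followed another order, at 21.6 ± 3.47, 11.1 ± 4.32 and 55.9 ± 3.24 CPM in the same tissues. Fscn1 and Ccl22 were 221 ± 29.4 and 77.0 ± 19.4 CPM in the mesenteric node, between the 40.2 ± 2.62 and 5.68 ± 2.46 of spleen and the 382 ± 71.7 and 132 ± 9.27 of the inguinal node. Ccl5 was 213 ± 31.95 CPM in the mesenteric node, nearer to spleen (152 ± 16.6) than to the inguinal node (744 ± 145), and Ccl8 was 1.66 ± 0.645 there against 90.9 ± 53.98 in the inguinal node. Cd3e was 102 ± 11.1 CPM in the mesenteric node and 96.4 ± 31.1 in blood, against 77.4 ± 12.2 in spleen and 189 ± 18.9 in the inguinal node. These levels are descriptions, with no test between these further tissues.

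**Figure D5:**
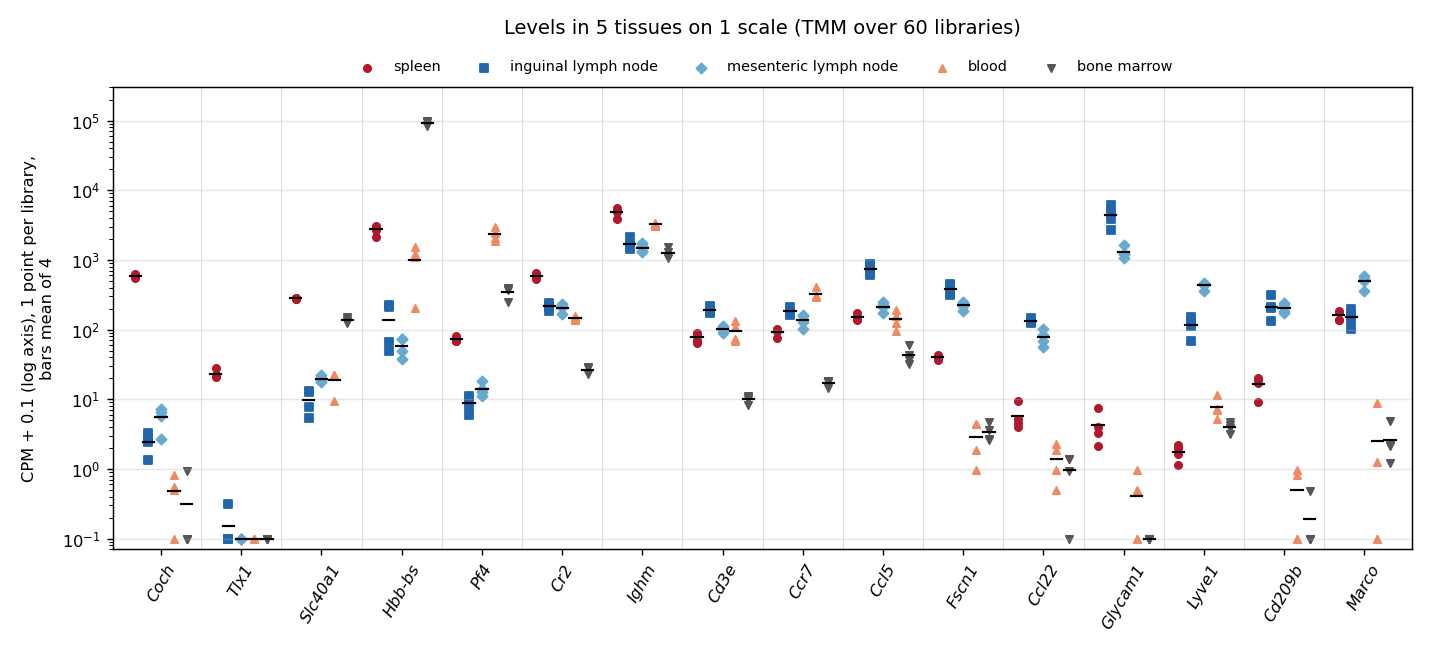
CPM of 16 genes in spleen, inguinal lymph node, mesenteric lymph node, blood mononuclear cells and bone marrow (log axis, 0.1 added, scale set over 60 libraries), 1 point per library with the mean of 4 as a bar. Coch and Tlx1 stand apart in spleen, Glycam1 and Ccl22 in the nodes, and Cd209b has means of 214 and 205 CPM in the inguinal and mesenteric nodes against 16.4 in spleen.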

How the data were processed

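The authors deposited 1 table of read counts per gene for all 60 libraries, in whole numbers and not normalized. Per the submitters' processing notes, it was made with FastQC, STAR and featureCounts on the mm10 build. With the strand setting and tool versions not given in the sources used here, overlapping and antisense genes cannot be told apart. Of 54532 genes, 54495 matched GENCODE M21 identifiers. No molecular identifiers are named, so reads are not independent molecules, and intervals cover counting error only. The 8 libraries held 2435089 to 5211133 counts, and their number limits the precision.

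Samples were grouped by tissue label. Genes passed edgeR's filterByExpr (minimum count 10, minimum total 15), counts were scaled by TMM, and the quasi-likelihood test compared the tissues (R 4.3.3, edgeR 4.0.16), with Benjamini-Hochberg adjustment over all 13130 genes. A standard error is the log2 fold change divided by the square root of F. On simulated counts the test found all of 100 genes changed 3-fold and all of 100 changed 6-fold, with 2 false calls among 13182 genes tested. Every gene was simulated with the same spread (dispersion 0.0212) and with no library set apart. The simulation therefore cannot speak for genes that varied widely among libraries of a tissue. DESeq2 1.42.0 and limma-voom (limma 3.58.1) were among 22 alternatives.

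Named genes were the 12 with the largest called change per direction (at least 20 CPM, no overlap), up to 4 called members per list (at least 5 CPM), called members against their list, up to 3 by level where fewer than 2 were called, the label markers, and near-even members; further genes were chosen after their values were seen, and some genes are not reported here. The gene lists and members were chosen with earlier results of these data known.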

Additional observations from a re-analysis of the deposited data

Results flagged for a closer look

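Among 400 groups of 4 libraries (1 gene in 1 tissue), 29 held a library whose gap to the nearest other, over the whole range, passed Dixon's critical value at 95%; chance flags about 5% of groups. Some of these are single reads in a tissue otherwise without any: Tcf21 at 0.315 CPM in node replicate 3, Wt1 at 0.264 CPM in node replicate 2, Tlx1 at 0.264 CPM in node replicate 2, Oit1 at 0.423 CPM in spleen replicate 2, Gp9 at 0.264 CPM in node replicate 2, Upk3b at 0.264 CPM in node replicate 2 and Ctrb1 at 0.908 CPM in node replicate 4. Node replicate 1 was the highest library, apart from the others, for Ccl8 at 212 CPM against 65.4 to 90.2 and for Xcr1 at 51.3 CPM against 25.4 to 28.6. Node replicate 2 was the highest library, apart from the others, for Ighg3 at 46.3 CPM against 15.8 to 18.8, for Ifit1 at 96.5 CPM against 10.1 to 14.5, for Ifit3 at 99.7 CPM against 9.46 to 12.1, for Rsad2 at 58.97 CPM against 7.87 to 13.6 and for Mx1 at 65.1 CPM against 20.2 to 26.95. Node replicate 3 was the highest library, apart from the others, for S100a8 at 35.3 CPM against 10.3 to 13.5. Node replicate 4 was the highest library, apart from the others, for Hsph1 at 61.4 CPM against 43.5 to 45.7. Spleen replicate 1 was the highest library, apart from the others, for S100a9 at 139 CPM against 98.9 to 105. Spleen replicate 2 was the highest library, apart from the others, for Pf4 at 109 CPM against 91.1 to 92.1 and for Klf2 at 379.6 CPM against 319.9 to 323. Spleen replicate 3 was the highest library, apart from the others, for Camp at 18.96 CPM against 7.19 to 8.19. Spleen replicate 3 was the lowest library, apart from the others, for Clec4a2 at 16.2 CPM against 24.9 to 26.2. Spleen replicate 4 was the highest library, apart from the others, for Cela1 at 1684 CPM against 10.6 to 61.9, for Vtn at 1.98 CPM against 0.338 to 0.423, for Fabp4 at 34.01 CPM against 13.1 to 13.5, for Inmt at 1.98 CPM against 0.677 to 0.845, for Ctrb1 at 2378 CPM against 0 to 66.7, for Epcam at 7.51 CPM against 5.73 to 5.92 and for Krt7 at 5.93 CPM against 3.68 to 3.80. Spleen replicate 4 was the lowest library, apart from the others, for Fcgr4 at 26.5 CPM against 36.2 to 37.2.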

How the results depend on the processing

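Without a filter on low counts, 2484 of 27529 genes differed (1317 higher in spleen, 1167 in the node); with all 60 libraries in the fit, 2345 of 18562 differed (1244 higher in the node), and the share higher in spleen was 46.95%, against 56.89% in the fit of 8 libraries; with library totals in place of TMM it was 50.87%. With no minimum fold change, 5913 genes differed (3089 and 2824). Leaving out 1 library at a time gave 1531 to 1755 genes, 858 to 981 higher in spleen and 619 to 790 in the node. Thinned to 1 depth, 1307 genes differed. Of 150 named genes that were called, 116 were called in every setting in which they were tested, out of 22 alternatives, of which 3, leaving out replicates 3 and 4 of a tissue or of both, were chosen after seeing the data. Ifit3, at -0.55, ran from -0.89 to 1.03 as 1 library was left out and reversed without node replicate 2; the cause was not tested. A change of sign in a gene that was uncalled before and after was not counted as a reversal. Without node replicates 3 and 4, Mzb1 (0.98) and Ncr1 (0.94) came under the fold threshold. Same-numbered libraries did not deviate together (correlations of -0.022, 0.046, -0.048 and 0.037). With the replicate block in the fit, 1523 genes differed (862 higher in spleen, 661 in the node); spleen replicate 4 correlated best with node replicate 3 (0.111), so not every library correlated best with its own number.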
